A study of Gossypium barbadense and Gossypium hirsutum with 8 samples.

Results

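The genes described here are 71 of the 59006 genes measured in developing cotton fibers whose share of the library stayed within a 2-fold band in 8 libraries. They were chosen on their measured values. Each RPKM value (a read count per gene length and library size, computed by the authors) was divided by the summed RPKM of its library and multiplied by 300000, which gives the scaled RPKM used below. A gene was kept when the highest of its 8 scaled values was at most 2 times the lowest, its mean over the libraries was at least 10 RPKM and its lowest value was below 100 RPKM. Flatness over these libraries is therefore the rule itself and not a finding. The genes are candidates for use as reference genes over fiber stage and species.

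Total RNA from fiber of Gossypium barbadense and Gossypium hirsutum was sequenced at 4 ages, 5, 10, 15 and 20 days after flowering (days post anthesis, DPA). Each age of each species was covered by 1 library. The labels give no cultivar, no treatment and no number of plants for any library. The last stage is given as 20 DPA in the sample descriptions, while the titles of both libraries carry the number 25. With no replicate of any stage, the spread reported for a gene is over species and stages together.

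A reference gene is a transcript to which others are compared, for example in quantitative PCR, so that differences in RNA input cancel out. It has to hold its level across the conditions compared, which is hard to meet in cotton fiber, an outgrowth of one epidermal cell of the seed coat, which lengthens for some weeks and then thickens its wall with cellulose. Ubiquitin, actin and histone genes have been common choices in plants. Cultivated tetraploid cottons carry an A and a D subgenome, so that many genes exist as an A copy and a D copy, called homoeologs. The identifiers carried no gene names: 0 of them matched the 74561 genes of the G. barbadense reference table. It is therefore not known here which of these 71 genes, if any, belong to such classes, and no function is given. An identifier such as Gh_A10G0495 places a gene on chromosome A10, and Sca identifiers lie on unplaced scaffolds. For the same reason the tissue label was not checked against fiber markers, and seed-coat markers were not examined. In bulk RNA, fewer cells of a type and less RNA per cell cannot be told apart.

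Few genes met the rule. Of 4250 genes averaging 10 RPKM or more, 75 (1.76%) stayed within 2-fold, and 71 of them had a lowest value below 100 RPKM. The median gene among the 4250 had a highest scaled value 9.03 times its lowest. The 71 genes took between 1.1% and 1.42% of the summed RPKM in each library. The other 4 genes within 2-fold were kept out by the limit on the lowest value, which ran from 105.7 RPKM for Gh_A13G1535 to 193 RPKM for Gh_D13G2074.

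The flattest gene was Gh_A10G0495, with a highest scaled value 1.29 times its lowest. From 5 to 20 DPA its scaled RPKM was 24.1, 23.0, 20.9 and 26.2 in G. barbadense, against 20.4, 25.6, 20.5 and 23.4 in G. hirsutum. The ranges of the species overlapped, and no stage stood apart in both. As deposited, the same gene had 20.8, 38.6, 26.5 and 28.3 RPKM in G. barbadense and 9.4, 27.9, 17.3 and 23.2 RPKM in G. hirsutum, a 4.11-fold range whose ends lay in the libraries of the lowest and the highest summed RPKM.

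Next in order came Gh_A06G1667, the member with the lowest mean level (10.1 RPKM) and a 1.43-fold range. It had 9.49, 9.29, 9.54 and 9.57 scaled RPKM in G. barbadense, against 8.81, 10.2, 12.4 and 8.71 in G. hirsutum. Its 4 G. barbadense values lay within the range of the G. hirsutum values, where the 15 DPA library was the highest.

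Gh_A07G0600 and Gh_A01G1798 varied less over age within a species than between species. Gh_A07G0600 had 51.4, 55.2, 57.1 and 53.1 scaled RPKM at the 4 stages in G. barbadense, against 41.4, 46.5, 42.7 and 39.0 in G. hirsutum. Gh_A01G1798 went the other way, with 15.0, 16.2, 13.6 and 13.8 in G. barbadense, against 20.2, 17.8, 17.6 and 19.3 in G. hirsutum. In both genes the species did not overlap, although their ranges were only 1.46-fold and 1.49-fold.

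Among the remaining genes of the flattest 8, Gh_D01G2039, Gh_D08G0424, Gh_A09G0975 and Gh_A13G0601 had ranges from 1.49-fold to 1.55-fold. Gh_D01G2039 stood at 12.7, 13.1, 8.76 and 8.75 scaled RPKM in G. barbadense, against 10.7, 9.93, 12.9 and 11.0 in G. hirsutum, so the species crossed between 10 and 15 DPA. Gh_A09G0975 had 21.3, 18.8, 19.8 and 19.0 in G. barbadense, against 23.2, 21.2, 28.8 and 28.6 in G. hirsutum. Its highest values were the G. hirsutum libraries of 15 and 20 DPA.

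**Figure D1:**
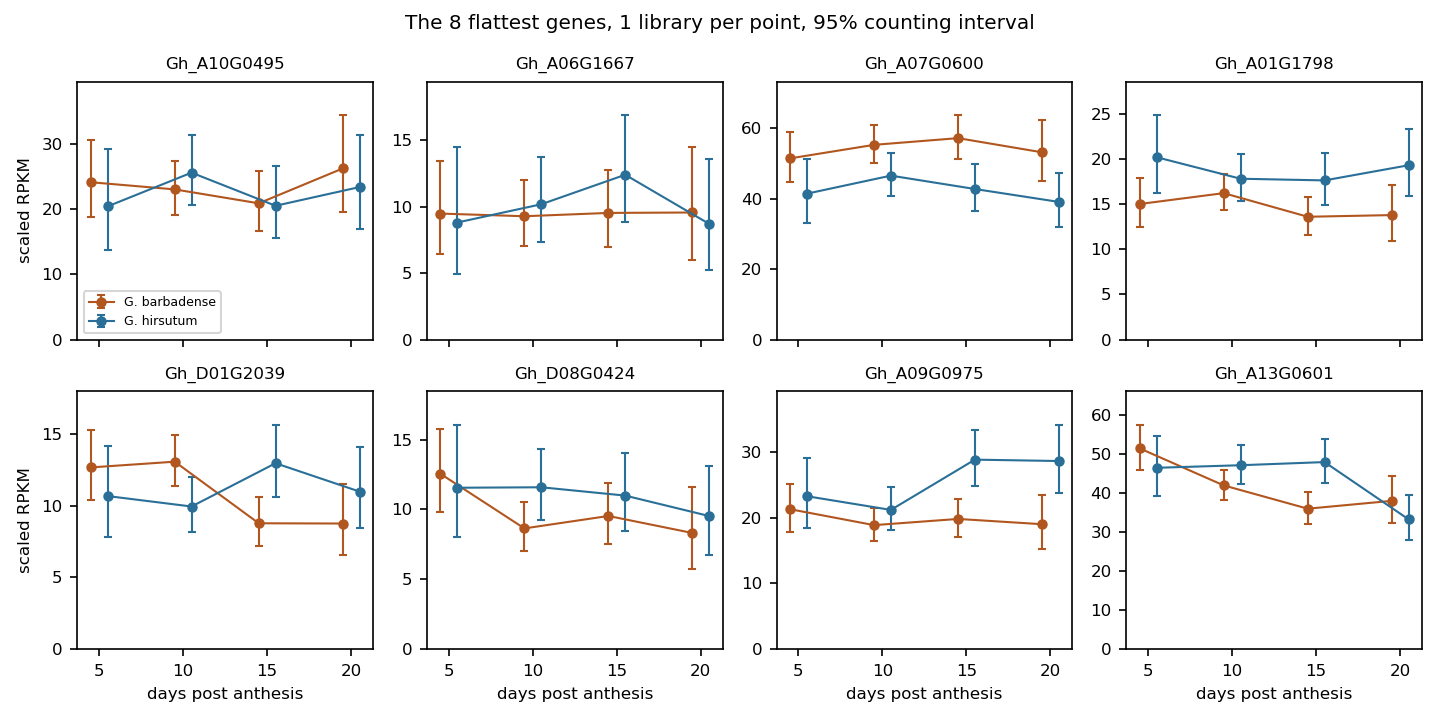
Scaled RPKM (vertical axis) against age in days post anthesis (horizontal axis) for the 8 genes with the smallest range, G. barbadense in orange and G. hirsutum in blue. Each point is 1 library and each bar its exact 95% Poisson interval for the reads counted; Gh_A10G0495 lies between 20.4 and 26.2, and the species separate in Gh_A07G0600 and Gh_A01G1798.

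The limit of 2-fold fell in a dense part of the range. Only 5 of the 71 genes were at or under 1.5-fold, 21 lay between 1.5-fold and 1.8-fold, and 45 lay above 1.8-fold, with a median of 1.86-fold. Just inside the limit were Gh_D09G2139 and Gh_D07G0737, at 1.996-fold and 1.999-fold. Just outside were Gh_A05G3548 at 2.002-fold and Gh_D07G2248 at 2.007-fold. Gh_D07G0737 had 18.7, 26.5, 28.4 and 34.9 scaled RPKM in G. barbadense, against 37.4, 31.2, 25.3 and 28.6 in G. hirsutum, and Gh_A05G3548 had 55.0, 35.6, 58.5 and 35.8 in G. barbadense, against 40.8, 55.9, 48.6 and 29.2 in G. hirsutum. Neither was of 1 sign between the species. The coefficient of variation over the 8 scaled values ran from 9.84% to 27.2% with a median of 21.3%.

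The 71 genes covered a wide range of levels. Their mean level ran from 10.1 RPKM to 236 RPKM with a median of 29.4 RPKM, against a median of 22.4 RPKM over the 4250 genes. The most abundant was Gh_D03G0889, with 280.1, 172, 220.2 and 234 scaled RPKM in G. barbadense, against 204, 319.7, 230.2 and 195 in G. hirsutum. The lowest of these values was the 10 DPA library of G. barbadense and the highest the 10 DPA library of G. hirsutum. Gh_Sca210586G01, on an unplaced scaffold, was the second in level at a mean of 219 RPKM. It had 207, 181, 196 and 240.1 scaled RPKM in G. barbadense, against 149, 287, 257 and 164 in G. hirsutum, where both ends of its range lay. Genes within 2-fold made up 0.679% of the 1914 genes between 10 and 20 RPKM, 2.2% of those between 20 and 50 RPKM, 3.01% between 50 and 100 RPKM, 3.8% between 100 and 200 RPKM and 3.57% of the 168 genes at 200 RPKM or more, the limit on the lowest value left aside.

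The reads behind each value could be recovered, which shows how much of the spread counting alone can give. In a table of whole reads, the 8 RPKM values of a gene are whole multiples of what 1 read is worth, once the relative library sizes (0.56 of the first library for G. barbadense at 20 DPA, 0.58 for G. hirsutum at 20 DPA, and 0.98 or more in the others) are known. Whole reads were found for all 71 genes, with a root mean square deviation from whole numbers of at most 0.0388 reads, and for 3020 of the 3802 genes above 0 in every library at a mean of at least 10 RPKM. One read was worth 0.0686 to 0.69 RPKM in the 71 genes. The fewest reads of a gene in any library ran from 13 to 284 with a median of 74. At that point the counting error was between 5.93% and 27.7%, with a median of 11.6%, and covers counting only.

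For Gh_A10G0495 the reads were 68, 124, 85 and 52 in G. barbadense, against 30, 91, 57 and 44 in G. hirsutum. Its variance around a constant share was 0.58 times that expected from counting. Gh_A06G1667 had 31, 58, 45 and 22 reads in G. barbadense, against 15, 42, 40 and 19 in G. hirsutum, with a variance 0.43 times the counting value. At this depth no variation of these 2 genes beyond counting error was detectable; both were picked for a small range.

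Most of the other members varied by more than counting. The variance was at most 2 times the counting value in 7 of 71 genes, against 0.563% of the 3020 genes with whole reads, a contrast fixed by the choice of flat genes. Over the 71 genes the variance had a median of 6.20 times the counting value, and over the 3020 genes a median of 28.2 times. It exceeded 10 times in 17 of the 71 genes. The highest was Gh_D13G0519 at 34.1 times, with 3999 reads in all. Its scaled RPKM was 159, 106, 83.2 and 114 in G. barbadense, against 85.6, 132, 161 and 88.6 in G. hirsutum, so that the highest library was an early one in G. barbadense and the 15 DPA one in G. hirsutum. A 2-fold band thus held both genes with no variation detectable at their depth and genes whose variance was more than 10 times the counting value. For a given departure from a constant share, this multiple rises with the number of reads. The 7 genes at most 2 had 268 to 551 reads in all, and the 17 above 10 had 1777 or more. Gh_A07G2028 was at 1.96 with a 1.94-fold range and Gh_A05G2457 at 26.1 with a 1.64-fold range. The multiple therefore does not rank the members by flatness.

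**Figure D2:**
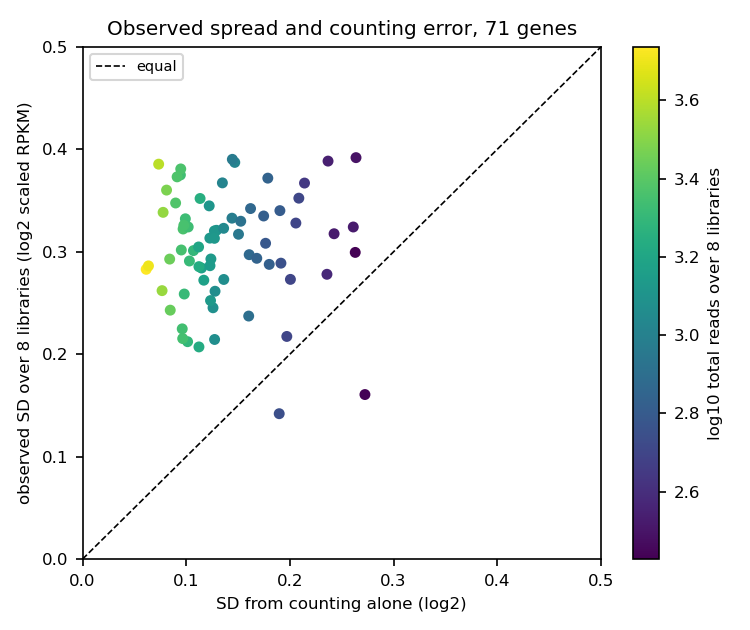
Observed standard deviation over the 8 libraries (vertical axis, log2 scaled RPKM) against the standard deviation that counting alone gives (horizontal axis, log2) for the 71 genes, coloured by the total number of reads on a log10 scale. Gh_A10G0495 and Gh_A06G1667 lie below the dashed line of equality, and the genes with the most reads lie farthest to the left.

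The highest value lay in a 15 DPA library for 27 of the 71 genes, against 20.8% of the 4250 genes, and in a 20 DPA library for 9, against 19.1%. The lowest lay in a 20 DPA library for 29 of the 71, against 44.9% of the 4250 genes. These are values that the rule used, and they are given as a description. By library, 18 genes (25.4%) were highest in G. hirsutum at 15 DPA, against 12.0% of the 4250 genes. In G. hirsutum at 20 DPA 16 genes (22.5%) were lowest, against 18.3%. The median deviation from the gene's own mean was between -0.07 and 0.02 on the log2 scale in the 4 G. barbadense libraries. In G. hirsutum it was 0.02, 0.14, 0.11 and -0.21 at 5, 10, 15 and 20 DPA. The joint level, as the geometric mean of the 71 genes, was 37.4, 35.5, 36.7 and 36.1 scaled RPKM in G. barbadense, against 38.2, 39.9, 39.2 and 33.4 in G. hirsutum, a 1.20-fold range.

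**Figure D3:**
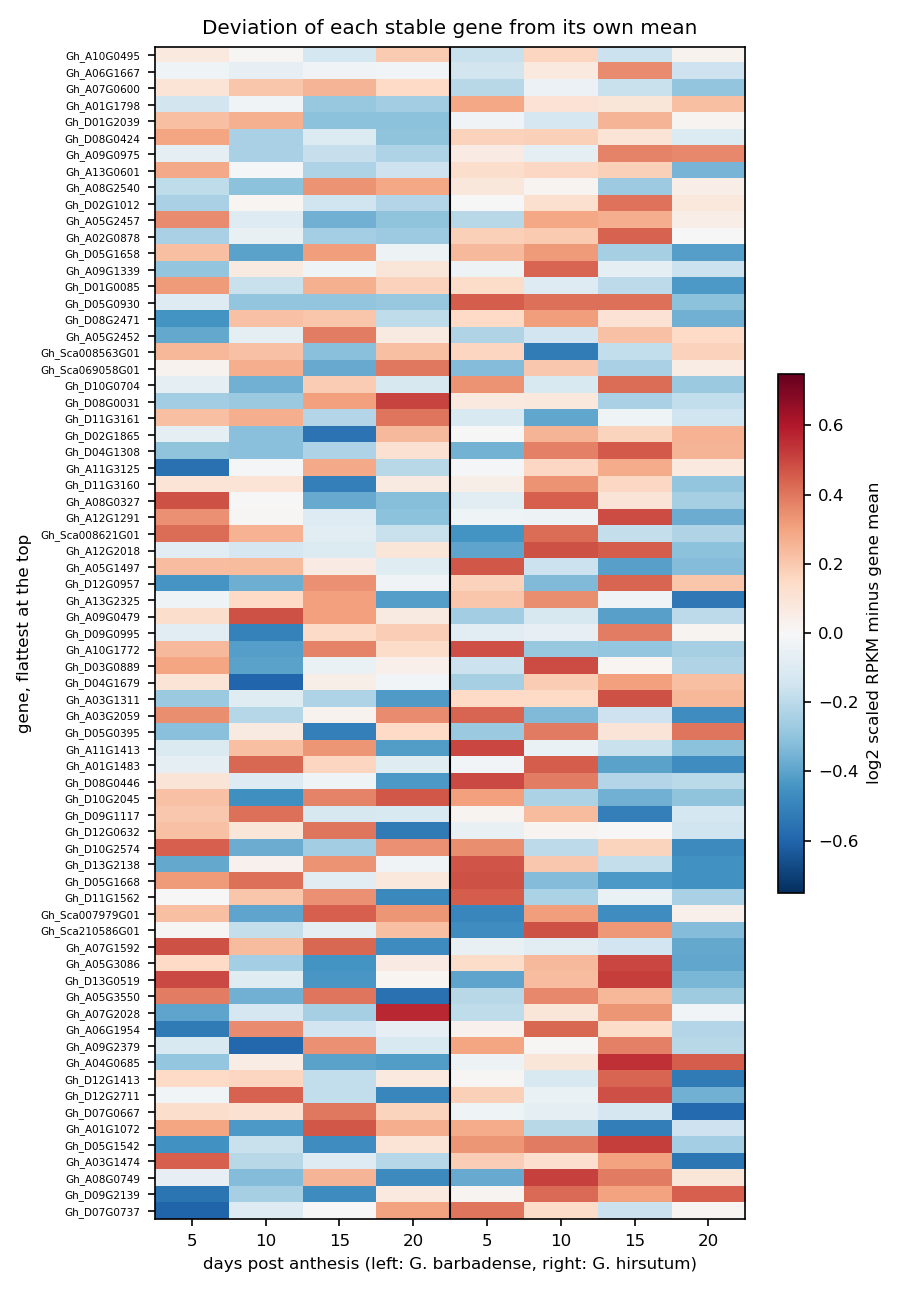
Deviation of the log2 scaled RPKM of each of the 71 genes (rows, flattest at the top) from the gene's own mean over the 8 libraries (columns, days post anthesis, G. barbadense left and G. hirsutum right of the line). Red is above and blue below the mean; the G. hirsutum 20 DPA column is mostly blue, with a median of -0.21.

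Between species, the members were close on average and differed singly. Averaged over the 4 stages, the log2 difference of G. barbadense minus G. hirsutum ran from -0.60 to 0.49 over the 71 genes, with a median of -0.06. The median over the genes was -0.02, -0.18, -0.13 and 0.16 at 5, 10, 15 and 20 DPA. Over the 3802 genes above 0 in every library the median difference was -0.13. All 4 stages were higher in G. barbadense for 4 of 71 genes (5.63%), against 11% of the 4250 genes, and lower for 10 of 71 (14.1%), against 15.6%. These values were used by the rule, so nothing is read from those shares.

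The largest differences of a single sign belonged to Gh_A09G0479 and Gh_D07G0667 on the G. barbadense side and to Gh_D09G2139 and Gh_A04G0685 on the G. hirsutum side. Gh_A09G0479 had 76.4, 97, 86.3 and 73.0 scaled RPKM in G. barbadense, against 58.0, 64.2, 52.4 and 60.8 in G. hirsutum, a mean log2 difference of 0.49 ± 0.20 (SD over 4 stages). Gh_D07G0667 had 66.5, 65.7, 79.7 and 68.1 in G. barbadense, against 59.3, 58.0, 55.6 and 40.6 in G. hirsutum, a mean log2 difference of 0.40 ± 0.28. Gh_D09G2139 had 25.4, 31.2, 26.8 and 39.1 in G. barbadense, against 37.8, 50, 45.8 and 50.8 in G. hirsutum, a mean log2 difference of -0.60 ± 0.17. Gh_A04G0685 averaged 12.5 ± 2.03 in G. barbadense, against 18.1 ± 3.5 in G. hirsutum (SD over 4 stages). The species did not overlap in Gh_A09G0479 and Gh_D07G0667, and in Gh_D09G2139 the highest G. barbadense value lay just above the lowest of G. hirsutum. They overlapped in Gh_A04G0685, at 15.4 in G. barbadense at 10 DPA against 14.4 in G. hirsutum at 5 DPA. Its log2 difference at 10 DPA was only -0.04, and its fewest reads were 26, in G. hirsutum at 5 DPA.

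Over age, on the scale of library shares, 15 of the 71 genes (21.1%) were higher at 20 than at 5 DPA in both species, against 25.6% of the 4250 genes, and 31 (43.7%) were lower in both, against 49.1%. The median log2 difference of 20 minus 5 DPA came to -0.05 for G. barbadense and -0.15 for G. hirsutum, against -0.51 and -0.56 over the 3802 genes. Gh_D05G0395 was among the 2 with the largest differences upward, at 18.7 scaled RPKM at 20 DPA against 13.6 at 5 DPA in G. barbadense, and 22.4 against 13.9 in G. hirsutum. Gh_A07G2028 was the other, at 29.1 against 15.0 in G. barbadense and 19.4 against 17.3 in G. hirsutum. On the opposite side, Gh_A03G1474 stood at 22.3 at 20 DPA against 35.1 at 5 DPA in G. barbadense, and at 17.7 against 29.3 in G. hirsutum. Gh_A07G1592 stood at 11.7 against 22.6 in G. barbadense and at 12.4 against 15.6 in G. hirsutum.

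Whether a gene counted as flat depended on what the libraries were scaled to. The summed RPKM differed 3.64-fold between libraries, lowest in G. hirsutum at 5 DPA (138198) and highest in G. barbadense at 10 DPA (503585), while the library sizes recovered from the RPKM steps differed 1.8-fold and were smallest at 20 DPA. As deposited, 0 of the 71 genes were within 2-fold (against 0.494% of the 4250 genes), and their median range was 3.69-fold. With quantile normalization 41 of 71 genes (57.7%) stayed within 2-fold (against 1.69%). With median-of-ratios factors, which set the median gene of those present in every library to the same level, 11 of 71 (15.5%) stayed (against 1.74%). The lists that the same rule gave under those 2 scalings were of like size, 70 and 72 genes, so that 58.6% of the first and 15.3% of the second were among the 71.

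Median-of-ratios factors moved every gene alike against library shares, by 2.22-fold between 5 and 20 DPA in G. barbadense and by 1.74-fold in G. hirsutum. Genes held within 2-fold by the rule are bound to stand higher at 20 DPA in G. barbadense on that scale, and nothing is read from their common direction. From 5 to 20 DPA their geometric mean was 24.5, 29.3, 40.6 and 52.6 in G. barbadense, against 29.7, 34.5, 33.6 and 45.1 in G. hirsutum. On that scale 66 of the 71 genes were higher at 20 than at 5 DPA in both species and 0 were lower in both, against 43.8% and 30.7% of the 4250 genes. There the median log2 difference of 20 minus 5 DPA came to 1.11 for G. barbadense and 0.65 for G. hirsutum, against 0.64 and 0.24 over the 3802 genes. Of the summed RPKM, the top 100 genes of each library held 48% at 20 DPA against 19.9% at 5 DPA in G. barbadense, and 45.4% against 25.6% in G. hirsutum; their part in the difference between the scalings was not tested.

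**Figure D4:**
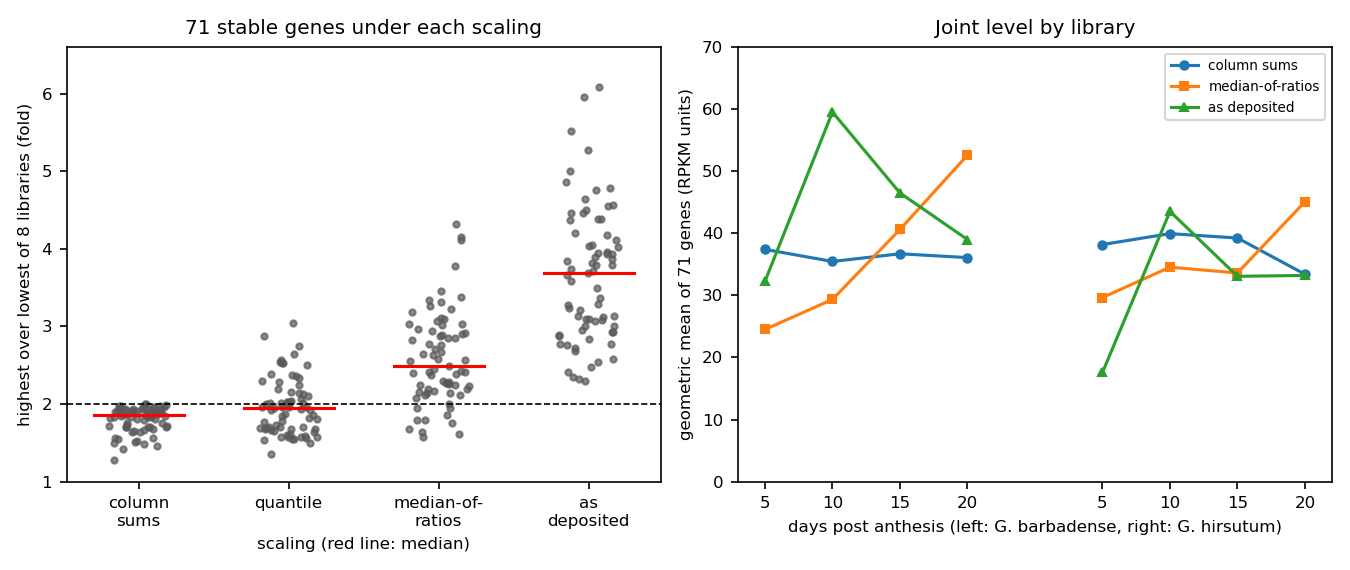
Left, the highest over the lowest of 8 libraries (fold, vertical axis) for each of the 71 genes under 4 scalings, with the median in red and the 2-fold limit dashed; the medians are 1.86, 1.95, 2.49 and 3.69. Right, the geometric mean of the 71 genes by library under 3 scalings, G. barbadense left and G. hirsutum right; with median-of-ratios factors it reaches 52.6 and 45.1 at 20 DPA.

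The 11 genes within 2-fold under column sums, quantile normalization and median-of-ratios factors alike were Gh_A13G0601, Gh_D01G2039, Gh_D08G0424, Gh_A08G0327, Gh_A12G1291, Gh_D08G0446, Gh_D12G0632, Gh_D05G0930, Gh_D12G2711, Gh_A03G1474 and Gh_A07G1592. The first had the smallest range in the worst of the 3 scalings, 1.64-fold. On library shares all 11 had a negative mean log2 difference of 20 minus 5 DPA, from -0.69 for Gh_A03G1474 to -0.25 for Gh_D01G2039. Median-of-ratios factors raise 20 DPA against 5 DPA, by 2.22-fold in G. barbadense and 1.74-fold in G. hirsutum. Staying within 2-fold on both scales therefore favoured genes that fell in library share, and is no independent sign of flatness. Gh_A13G0601 stood at 51.4, 41.9, 36.0 and 38.0 scaled RPKM in G. barbadense, against 46.4, 47.1, 47.9 and 33.2 in G. hirsutum. With median-of-ratios factors its values were 33.7, 34.7, 39.8 and 55.3 in G. barbadense, against 36.1, 40.7, 41.0 and 44.9 in G. hirsutum. On the first scale the lowest library was G. hirsutum at 20 DPA, and on the second the highest was G. barbadense at 20 DPA. Gh_D08G0424 had 12.5, 8.64, 9.53 and 8.31 scaled RPKM in G. barbadense, against 11.5, 11.6, 11.0 and 9.52 in G. hirsutum, and a range of 1.8-fold with median-of-ratios factors. Gh_A08G0327, with a mean of 10.2 RPKM, had 13.6, 9.81, 7.51 and 7.82 scaled RPKM in G. barbadense, against 9.25, 13.4, 10.5 and 8.24 in G. hirsutum. It rested on 28 reads in the G. hirsutum library of 5 DPA.

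The ratio of 2 genes within a library needs no scaling, so the members were also compared with each other, which describes the chosen genes and adds no independent support for any of them. For each gene, the standard deviation of its log2 ratio to each other member over the 8 libraries was averaged. This value was lowest in Gh_A06G1667 (0.317), Gh_A13G0601 (0.333) and Gh_D08G0424 (0.339) and highest in Gh_Sca007979G01 (0.501), with a median of 0.409. Of the 2485 pairs of members, 655 (26.4%) kept their ratio within 2-fold over the 8 libraries, against 0.21% of the 7225701 pairs of the 3802 genes; a ratio of 2 members cannot range past 4-fold by the rule. In the least steady pair the ratio ranged 3.95-fold.

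A check on libraries that the choice had not used came from the other species. Of 571 genes averaging 10 RPKM or more with a range within 2-fold over the 4 G. barbadense stages, 196 (34.3%) were also within 2-fold over the 4 G. hirsutum stages, against 14.4% of all 4870 genes at that level in G. barbadense. In the other direction, 176 of 602 genes flat in G. hirsutum (29.2%) were within 2-fold in G. barbadense, against 14.6% of 3433 genes. In both directions the share was above that of genes at large, and most genes flat in one species went past 2-fold in the other. With a minimum mean of 20 RPKM, where counting error is smaller, the shares were 37.3% against 16.5% and 31.9% against 17.0%. Genes are not independent replicates, and no test was made.

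Each library was also held out in turn, again with lists other than that of the 71 genes. Genes averaging 10 RPKM or more were chosen within 2-fold on 7 libraries, and the held-out library was compared with the geometric mean of those 7. The limit on the lowest value was left aside here, and all genes stands for all those past the same mean. Among 168 genes chosen without the 5 DPA library of G. barbadense, 45.2% were within 1.5-fold there, against 31% of all genes. Without the G. hirsutum library of 5 DPA it was 57.9% of 133 genes, against 36%. For the other G. barbadense libraries the share was 68.9%, 71.8% and 72.8% at 10, 15 and 20 DPA, against 38.1%, 40.7% and 30.1% of all genes. For the other G. hirsutum libraries it was 66.7%, 65% and 68.3%, against 44.6%, 38.1% and 30.6%. The chosen genes that missed in the G. hirsutum library of 20 DPA were mostly low there, with 30 below and 3 above the band. The 2 libraries of the youngest fiber were therefore those in which flatness elsewhere was least often kept. At 5 DPA a member had a median of 153 reads for G. barbadense and 83 for G. hirsutum, and at 20 DPA a median of 89 for G. barbadense and 85 for G. hirsutum; the part of depth in these shares was not tested.

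**Figure D5:**
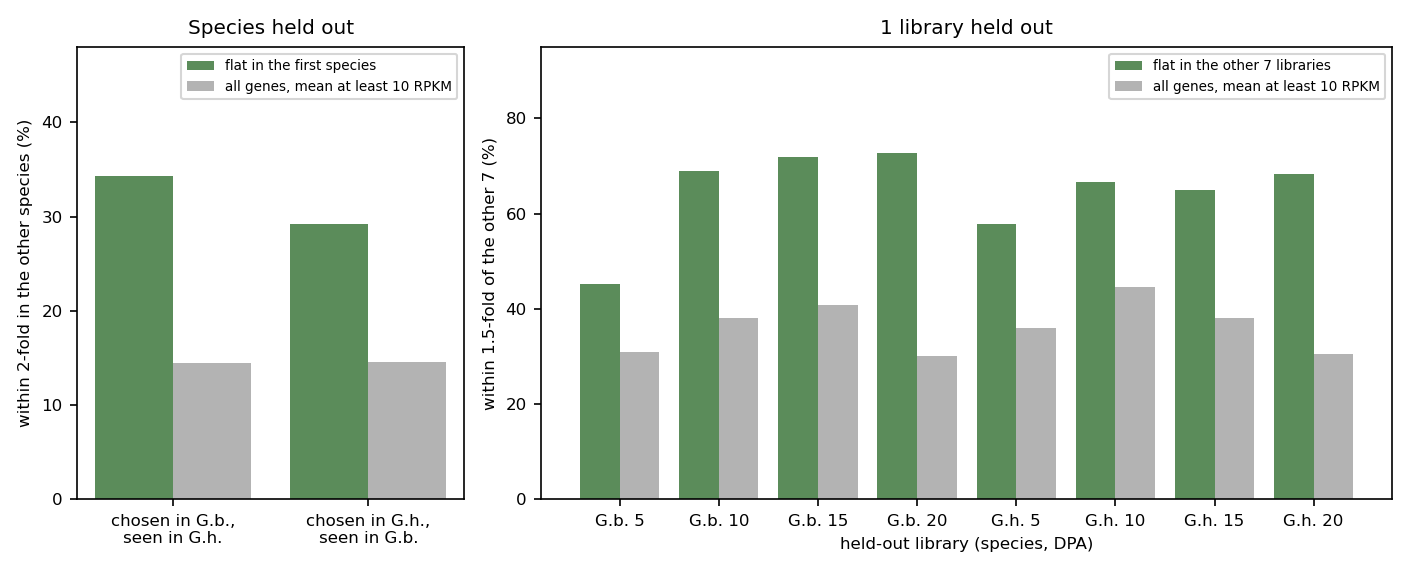
Left, share of genes within 2-fold over the 4 stages of the species not used in the choice (percent), for genes flat in the first species (green) and all genes averaging 10 RPKM or more (grey); 34.3% against 14.4% and 29.2% against 14.6%. Right, share within 1.5-fold of the other 7 libraries for each held-out library, lowest in G. barbadense at 5 DPA (45.2%).

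The position of the members, which the rule did not use, was close to that of other genes. The A and the D chromosomes held 33 members each (46.5%), against 46.3% and 48.7% of the 4250 genes, and unplaced scaffolds held 5 (7.04%), against 4.96%. Members lay on 25 of 26 chromosomes, with at most 5 on any of them and 0 on D06. Those with 5 were A05 and D05, which held the most of the 4250 genes, 247 and 223. D06 held 118 of the 4250, and nothing is read from its lack of members.

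Some members had a close partner on the equally numbered chromosome of the other subgenome. For each gene, the gene with the steadiest ratio to it over the 8 libraries was found among the 3802 genes above 0 in every library. That nearest gene lay on the equally numbered chromosome of the other subgenome for 17 of the 66 members on chromosomes (25.8%), against 34.6% of 3640 genes, whereas 3.93% of genes lay on that chromosome on average. The measure was chosen after the values were seen. In 5 cases both genes were members and each was the nearest to the other. No share over all genes stands beside this count, so nothing is read from it.

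One such pair was Gh_A02G0878 and Gh_D02G1012. Gh_A02G0878 had 20.5, 23.3, 20.4 and 20.1 scaled RPKM in G. barbadense, against 27.5, 27.9, 33.0 and 24.3 in G. hirsutum. Gh_D02G1012 had 19.4, 23.2, 20.7 and 19.7 in G. barbadense, against 22.9, 24.9, 30.5 and 24.2 in G. hirsutum. Both were highest in G. hirsutum at 15 DPA, and the standard deviation of their log2 ratio was 0.097. Gh_A11G1413 and Gh_D11G1562 formed a second pair (0.103), both highest in G. hirsutum at 5 DPA with 28.9 scaled RPKM each. The remaining pairs were Gh_A08G2540 with Gh_D08G0031, Gh_A05G1497 with Gh_D05G1668, and Gh_A07G0600 with Gh_D07G0667. In the last pair both genes were higher in every G. barbadense library than in any G. hirsutum library. Gh_A12G2018 was nearest to the scaffold gene Gh_Sca210586G01 (0.087), at a mean of 117 RPKM against 219 RPKM. Whether these genes are homoeologs, and how reads that fit both copies were counted, is not given in the sources used here.

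For 6 members, the nearest gene on the equally numbered chromosome was itself no member, with ranges from 2.06-fold to 2.35-fold. The closest of these was Gh_D01G1154, whose ratio to Gh_A01G1072 had a standard deviation of 0.083 and whose range was 2.06-fold. A partner of nearly the same course could thus fall on the other side of the limit. Among the 71 genes, 0 had another gene whose 8 RPKM values all lay within 1.1-fold, against 0.941% of the 4250 genes, while 70 had one within 1.5-fold, against 47.3%. Flat genes of like level are close to each other by the rule.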

How the data were processed

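Fiber RNA of 8 libraries was analysed, 1 per species and stage, grouped by the sample descriptions. The deposited table holds RPKM, made by the authors; per the submitters' processing notes the tools included Bowtie2, cutadapt and edgeR, whose roles and versions they leave out. How reads that fit several genes were handled, and on which build, is not given in the sources used here. Both species are reported on the same identifiers, which begin with Gh. Columns were matched to samples by title, and 0 columns were left over.

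The members and every list and measure were chosen with earlier results of these data known. The named genes are those with the smallest ranges, those next to the limit, the extremes of level, of species difference and of age difference, and those flat under 3 scalings; the rule's last item, pairs of members near-equal in level, found 0. Genes named outside it were chosen after their values were seen. No test was made, since the rule uses all 8 values. Range is the highest over the lowest value, with no pseudocount. Median-of-ratios factors came from 15529 genes above 0 in all libraries.

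Relative library sizes and reads came from the steps of RPKM values, as the smallest whole numbers within a root mean square of 0.05 reads; total depth is not known. A size was divided by 2, 3 or 5 where over 80% of genes had reads in that library divisible by it, which applied to both 20 DPA libraries; afterwards 49.4% to 53.9% of reads were even. Reads with a divisor common to all 8 libraries would be understated, and a whole-number fit can arise by chance. The variance index is the chi-square of the reads against a constant share, divided by its degrees of freedom. Intervals are exact Poisson at 95% and cover counting error only. The steps were tested on simulated data. Python 3.11.15, pandas 2.3.3, numpy 2.4.6, scipy 1.17.1 and matplotlib 3.10.9 were used. Alternatives were other scalings, fold limits, minimum means, a pseudocount and libraries left out.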

Additional observations from a re-analysis of the deposited data

How the results depend on the processing

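The list of 71 genes had 20 genes with RPKM as deposited, 133 without a minimum mean, 5 at a limit of 1.5-fold and 526 at 3-fold. Leaving out 1 library gave 98 to 160 genes, since fewer values have to lie in the band. The count moved by over 1.5 times without G. barbadense at 5 DPA (160). It did so too without G. hirsutum at 5, 10 or 15 DPA (120, 107 and 114). Each of the 8 lists that leave out 1 library held 66 to 71 of the 71 genes. That overlap was fixed by the rule. A gene within 2-fold over all libraries is so over fewer, and is lost only through the limits on mean or lowest level. Without both 20 DPA libraries, an alternative added after the data were seen, the count was 212. Of the 71 genes, 11 stayed within 2-fold with median-of-ratios factors, 41 with quantile normalization, 0 as deposited and 5 at 1.5-fold.

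The share of genes flat in G. barbadense that were flat in G. hirsutum was 14.3% as deposited, 14.0% at 1.5-fold and 65.5% at 3-fold. The reverse share was 21.9% with median-of-ratios factors, 24.9% with quantile normalization, 21.4% as deposited, 10.1% at 1.5-fold and 55.9% at 3-fold. In each of these settings it was above the share of all genes at the same level, which ran from 3.67% to 34.5%. With 1 library held out, the mean share kept within 2-fold was 63.6%, or 52.0% at 1.5-fold and 82.4% at 3-fold. A gene so kept is within the limit over all libraries. This share therefore sets the genes that the limit picks from all libraries against the longer lists picked with 1 left out. It is no check on unused values.

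The median species difference became 0.50 as deposited. The median difference of 20 minus 5 DPA was -0.18 on the scale of library shares and turned to 0.80 with median-of-ratios factors, 0.17 with quantile normalization and 0.54 as deposited; the cause was not tested. Leaving out 1 library gave -0.14 to -0.01 for the species and -0.178 to -0.047 for the age difference, the last without G. hirsutum at 5 or 20 DPA. The age difference uses only the 5 and 20 DPA libraries, so leaving out a 10 or 15 DPA library could not change it. Leaving out a 5 or 20 DPA library gave the median of the other species alone, -0.047 for G. barbadense or -0.152 for G. hirsutum. As deposited, 60% of the list lay on A chromosomes and 0 on scaffolds, and with quantile normalization 0 lay on scaffolds. Species differences were taken within each stage, on values that the rule used. For that reason no test paired by stage was made, and no result comes from a test. The labels give no replicate numbers within a stage. Depth limits the members with few reads most, with 12 of 71 genes under 30 reads in at least 1 library. Reads did not follow level alone. The fewest, 13, belonged to Gh_Sca007979G01 at a mean of 27.3 RPKM, while Gh_D01G2039 at 11.4 RPKM had at least 47.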

Other observations

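Members with close identifier numbers on 1 chromosome were looked at singly. Gh_D11G3160 and Gh_D11G3161 carry consecutive numbers. Gh_D11G3160 stood at 109, 109, 71.2 and 106 scaled RPKM in G. barbadense, against 105, 129, 113 and 82.8 in G. hirsutum, and Gh_D11G3161 at 40.4, 41.7, 29.7 and 45.6 in G. barbadense, against 31.9, 26.4, 33.8 and 31.2 in G. hirsutum. Both were lowest within G. barbadense at 15 DPA, and their ratio ranged 2.09-fold over the 8 libraries. Gh_D08G0424 and Gh_D08G0446, 22 numbers apart, kept their ratio within 1.57-fold. In Gh_A05G2452 and Gh_A05G2457, 5 numbers apart, the ratio ranged 2.79-fold. For Gh_D05G1658 and Gh_D05G1668, 10 numbers apart, it ranged 2.74-fold. Of all pairs of members, 26.4% kept their ratio within 2-fold, so nothing is read from the closeness of the numbers.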
